A study of Mus musculus with 6 samples.

Results

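The metabotropic glutamate (mGlu) receptor genes *Grm2*, *Grm3*, *Grm4*, *Grm5*, *Grm7*, and *Grm8* were followed in the hippocampus of mice with and without a *Phf21b* mutation. They were chosen by symbol, and all 6 are among the 14477 genes with deposited values, so no receptor named here was lost to the filter on low values. Other genes of the family were not analysed here. Phf21bΔ4/Δ4 mice are whole-body mutants in which a pair of CRISPR guides removed part of exon 4 of *Phf21b*, the gene of a protein with a PHD finger, a fold that often reads histone marks, and the study describes the line as a knockdown. Phf21b+/+ mice are wild type, and by the study's methods both genotypes came from young adult male and female littermates on a C57BL/6J background. Hippocampal RNA of untreated mice was sequenced as 1 library per mouse, from Phf21bΔ4/Δ4 replicates 2, 3, and 6 and Phf21b+/+ replicates 5, 7, and 8. Neither sex nor age is given for a single mouse.

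mGlu receptors are G protein–coupled receptors that sense glutamate through a large extracellular domain and work as dimers. Group I receptors, to which mGlu5 (*Grm5*) belongs, act through Gq and phospholipase C, sit mainly around the postsynaptic density, and drive a form of long-term depression in the hippocampus. Group II (mGlu2 and mGlu3, from *Grm2* and *Grm3*) and group III (mGlu4, mGlu7, and mGlu8, from *Grm4*, *Grm7*, and *Grm8*) act through Gi/o, lower cyclic AMP, and often restrain transmitter release from presynaptic terminals. *Grm3* is also expressed by astrocytes, and *Grm2* by dentate granule cells.

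In Phf21bΔ4/Δ4 hippocampi, *Grm5* was the receptor gene whose levels stood apart from wild type, at 1.4-fold, without passing the FDR threshold. *Grm7* and *Grm3* were at 1.21-fold and 1.06-fold. *Grm2*, *Grm3*, *Grm4*, and *Grm8* differed more among the 3 Phf21bΔ4/Δ4 mice than between the genotypes. The highest mutant exceeded the lowest 5.77-fold for *Grm2*, 4.62-fold for *Grm4*, 4.34-fold for *Grm8*, 1.64-fold for *Grm3*, and 1.27-fold for *Grm7*. Each of these 5 genes was highest in Phf21bΔ4/Δ4 replicate 3. At an FDR under 0.1 with a fold change above 1.3 (limma's moderated test, Benjamini-Hochberg adjustment over all 14477 genes), 0 of the 6 receptor genes were differentially expressed, where 1.22% of all genes were (0.553% higher and 0.663% lower in the mutants). Weighting the mice by limma's arrayWeights passed 2 of the 6, *Grm5* and *Grm2*, where it passed 24.5% of all genes. Voom on the recovered reads passed 0 of the 6, where it passed 1.55% of all genes. Of the 6, 1 had an unadjusted p under 0.05, where 23.6% of all genes did. Levels are CPM, the read count scaled to a common normalized library size, and with 20495605 to 24881257 reads per mouse on the listed genes every receptor gene had at least 164 reads in every mouse. Of *Phf21b* itself, Phf21bΔ4/Δ4 replicates 2, 3, and 6 had 2.15, 3.57, and 3.87 CPM and Phf21b+/+ replicates 5, 7, and 8 had 6.50, 5.23, and 6.47 CPM (log2 fold change -0.96, FDR 0.14, limma).

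Markers of several cell types and neighbouring brain regions differed between the libraries, and in bulk RNA fewer cells of a type and less RNA per cell cannot be told apart. Markers of hippocampal fields were present in every mouse. The 9 dentate granule cell markers summed to 395 to 901 CPM in Phf21bΔ4/Δ4 mice and 987 to 1136 CPM in Phf21b+/+ mice, with replicates 2 and 3 lowest. The 8 CA1 markers summed to 1002 to 1104 CPM against 416 to 461 CPM. The 12 medial habenula markers summed to 49.0 to 92.2 CPM against 301 to 447 CPM. Their defining member *Tac2* had 83, 63, and 41 reads in Phf21bΔ4/Δ4 replicates 2, 3, and 6 and 639 to 770 in the Phf21b+/+ mice. The 8 measured thalamus markers summed to 179 to 315 CPM against 432 to 706 CPM. Choroid plexus markers reached 15650 CPM in Phf21b+/+ replicate 7, and 972 CPM or less in the other 5 mice. The part of these differences in the receptor values below was not tested.

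*Grm5* (ENSMUSG00000049583.15) occupies 87584168 to 88134907 on the plus strand of chromosome 7 (GRCm38). mGlu5 couples to Gq and is tethered to the postsynaptic density by Homer proteins. Its level was 749, 718, and 636 CPM in Phf21bΔ4/Δ4 replicates 2, 3, and 6, and 510, 473, and 511 CPM in Phf21b+/+ replicates 5, 7, and 8. All 3 Phf21bΔ4/Δ4 mice therefore lay above all 3 Phf21b+/+ mice, which was the case for 15% of all genes, while in 16% the mutants all lay below. No other receptor gene separated the genotypes. The means were 701 ± 58.6 CPM and 498 ± 22.0 CPM (SD, n = 3 each). On the log2 scale the difference was 0.49 (SE 0.10, 95% interval from 0.26 to 0.72), with an unadjusted p of 0.0017 and an FDR of 0.11 by limma's moderated test. The exact permutation test gave p = 0.1, the smallest that 3 mice against 3 allow. By its unadjusted p, *Grm5* ranked 216 among the 14477 genes. Omitting any single mouse kept the difference between 0.44 and 0.56. Of these 6 fits, *Grm5* passed both thresholds only in that without Phf21bΔ4/Δ4 replicate 6 (FDR 0.024, limma). In that fit 2830 of the 14477 genes passed, against 176 with all 6 mice. Quantile normalization moved the difference most, to 0.22.

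**Figure D1:**
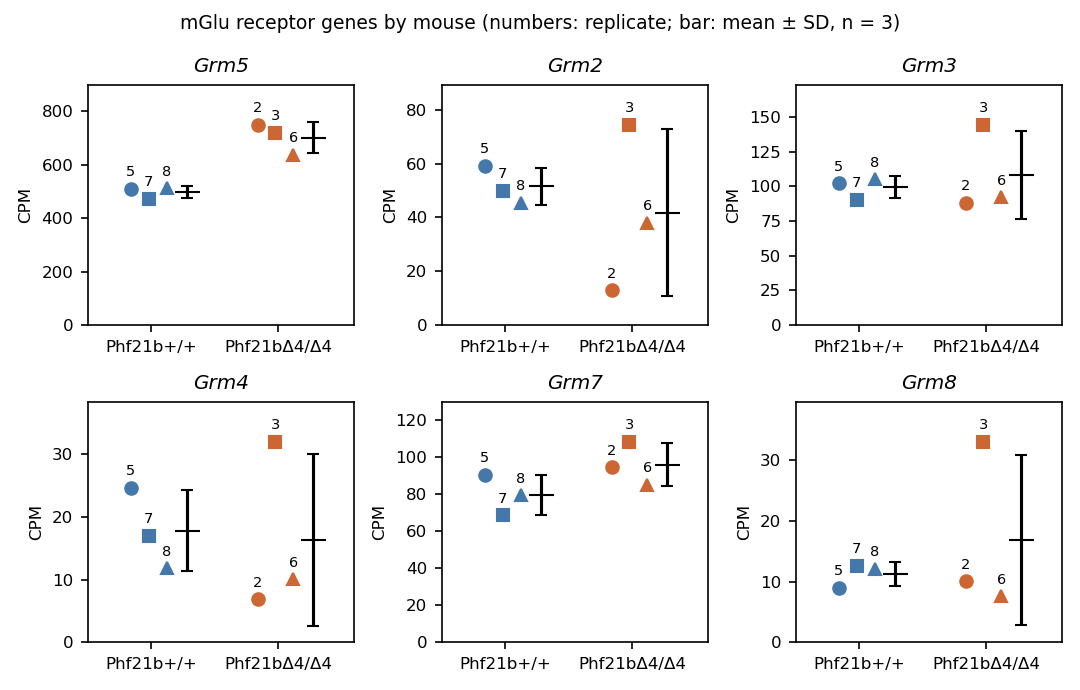
CPM (vertical axes, from 0) of the 6 mGlu receptor genes in each mouse, with Phf21b+/+ mice in blue and Phf21bΔ4/Δ4 mice in orange, replicate numbers above the points, and the mean ± SD (n = 3) as a black bar. *Grm5* is the panel in which the genotypes do not overlap, with 636 to 749 CPM against 473 to 511 CPM, and Phf21bΔ4/Δ4 replicate 3 is the highest mouse for each of the other 5 genes.

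Of the group II receptors, *Grm2* (ENSMUSG00000023192.12) lies on chromosome 9 from 106643095 to 106656082 and *Grm3* (ENSMUSG00000003974.6) on chromosome 5 from 9485541 to 9725170, both on the minus strand. The 250 bases upstream of their RefSeq starts (GRCm38.p6) are shown because the genes encode a pair of closely related receptors yet differed in their spread among the mutants. Each is given 5′ to 3′ on the gene's strand, with the GC box GGGCGG, searched on both strands, in capitals.
*Grm2*, chr9:106656110-106656359, minus strand: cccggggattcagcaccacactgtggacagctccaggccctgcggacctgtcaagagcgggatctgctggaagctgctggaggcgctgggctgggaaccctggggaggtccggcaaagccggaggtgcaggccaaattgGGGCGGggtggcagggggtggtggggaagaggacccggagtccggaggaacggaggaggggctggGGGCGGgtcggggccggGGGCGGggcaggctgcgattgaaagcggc
*Grm3*, chr5:9725353-9725602, minus strand: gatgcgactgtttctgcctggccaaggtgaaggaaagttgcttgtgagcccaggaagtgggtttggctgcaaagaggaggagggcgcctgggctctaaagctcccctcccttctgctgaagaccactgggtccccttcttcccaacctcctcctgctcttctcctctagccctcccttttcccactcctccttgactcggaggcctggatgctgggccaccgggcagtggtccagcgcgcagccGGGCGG
The *Grm2* window held 3 GC boxes and the *Grm3* window 1, and 32.7% of all 32851 windows of this length held at least 1. The bases TGACG, the core of the site that CREB binds, were searched on both strands and stood in neither window, while 17.8% of all windows held them. The G and C content was 71.2% for *Grm2* and 62.4% for *Grm3*. Windows were listed for 4 of the 6 receptor genes, and TGACG stood in 1 of these 7 windows, at a start of *Grm8*.

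*Grm2* had 12.9, 74.4, and 37.9 CPM in Phf21bΔ4/Δ4 replicates 2, 3, and 6. In Phf21b+/+ replicates 5, 7, and 8 it had 59.1, 49.97, and 45.5 CPM. The wild-type mice thus lay within 1.3-fold of each other, while the highest mutant had 5.77 times the level of the lowest and the mutants fell on both sides of the wild-type range. On the log2 scale the SD of *Grm2* was 1.28 among Phf21bΔ4/Δ4 mice, and 98.5% of all genes had a smaller one. Among Phf21b+/+ mice the SD was 0.19, with 67.3% of genes below it. The log2 difference between the genotypes was -0.63 (SE 0.58, 95% interval from -2.003 to 0.75, FDR 0.51, limma). It was 0.053 without Phf21bΔ4/Δ4 replicate 2 and -1.21 without replicate 3. These are the 2 mice with the lowest dentate granule cell markers, at 451 and 395 CPM in sum, and their *Grm2* levels were the lowest and the highest of the 6. Whether the share of dentate tissue bears on *Grm2* was not tested. Over 470 bp, 9.60% of its exon length, *Grm2* shares bases with the annotated gene *Gm28111* on the opposite strand, and the strandedness of the counting is not stated.

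*Grm3* had 88.1, 145, and 92.3 CPM in Phf21bΔ4/Δ4 replicates 2, 3, and 6 and 102, 90.4, and 105 CPM in Phf21b+/+ replicates 5, 7, and 8. Only Phf21bΔ4/Δ4 replicate 3 lay outside the range from 88.1 to 105 CPM that held the other 5 mice. The log2 difference was 0.091 (SE 0.19, 95% interval from -0.37 to 0.55, FDR 0.78, limma), and it turned to -0.14 without Phf21bΔ4/Δ4 replicate 3. The summed astrocyte markers, the other cell type known for *Grm3*, overlapped between the genotypes, with 5683 to 6760 CPM in Phf21bΔ4/Δ4 mice and 5053 to 6371 CPM in Phf21b+/+ mice. Most of that sum was the glutamate transporter gene *Slc1a2*. Of the 10 astrocyte markers, 6 had a log2 change above 0, and the median change was 0.082. *Aqp4*, the water channel of astrocytes, was lower in the mutants (-0.68 in log2 units, FDR 0.067, limma). *Gfap* had 330 ± 107 CPM in the mutants against 520.3 ± 60.1 CPM without overlap (SD, n = 3 each, FDR 0.17, limma).

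The group III receptor gene *Grm7* (ENSMUSG00000056755.13), on chromosome 6 from 110645581 to 111567230 on the plus strand, spans 922 kb. mGlu7 has a low affinity for glutamate and sits in the active zone of presynaptic terminals. *Grm7* had 94.4, 108, and 84.8 CPM in Phf21bΔ4/Δ4 replicates 2, 3, and 6 and 90.3, 68.6, and 79.1 CPM in Phf21b+/+ replicates 5, 7, and 8. The genotypes overlapped, with Phf21b+/+ replicate 5 above Phf21bΔ4/Δ4 replicate 6. The log2 difference was 0.27 (SE 0.13, 95% interval from -0.042 to 0.59, FDR 0.25, limma), and omitting any single mouse gave 0.17 to 0.37. *Grm7* shares 130 bp, 2.21% of its exon length, with *Gm20387* on the opposite strand.

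*Grm4* (ENSMUSG00000063239.17) lies on chromosome 17 from 27422387 to 27521403 and *Grm8* (ENSMUSG00000024211.15) on chromosome 6 from 27275119 to 28135178, both on the minus strand. Both encode presynaptic group III receptors with a higher affinity for glutamate than mGlu7. *Grm4* had 6.92, 32.0, and 10.05 CPM in Phf21bΔ4/Δ4 replicates 2, 3, and 6 and 24.7, 17.01, and 11.8 CPM in Phf21b+/+ replicates 5, 7, and 8. Phf21bΔ4/Δ4 replicate 3 was above, and the other 2 mutants below, every wild-type mouse. The log2 difference of *Grm4* was -0.39 (SE 0.57, 95% interval from -1.74 to 0.97, FDR 0.69, limma). It became -1.03 without Phf21bΔ4/Δ4 replicate 3 and 0.071 without replicate 2.

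*Grm8* had 10.04, 33.0, and 7.61 CPM in Phf21bΔ4/Δ4 replicates 2, 3, and 6 and 8.97, 12.6, and 12.1 CPM in Phf21b+/+ replicates 5, 7, and 8. It was a single mouse, Phf21bΔ4/Δ4 replicate 3, that lay above the range of 7.61 to 12.6 CPM of the others. The log2 difference of *Grm8* was 0.29 (SE 0.52, 95% interval from -0.95 to 1.54, FDR 0.74, limma), and without that mouse it was -0.35. Among Phf21bΔ4/Δ4 mice the log2 SD was 1.15 for *Grm4* and 1.12 for *Grm8*, against a median of 0.17 over all genes, and 97.9% and 97.8% of genes had a smaller SD. Among Phf21b+/+ mice the SD was 0.53 for *Grm4* and 0.27 for *Grm8*, with 92.5% and 79.3% of genes below, so *Grm4* was widely spread in both genotypes. Within *Grm8* lies the microRNA gene *Mir592*, which shares 96 bp of exon on the same strand.

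**Figure D2:**
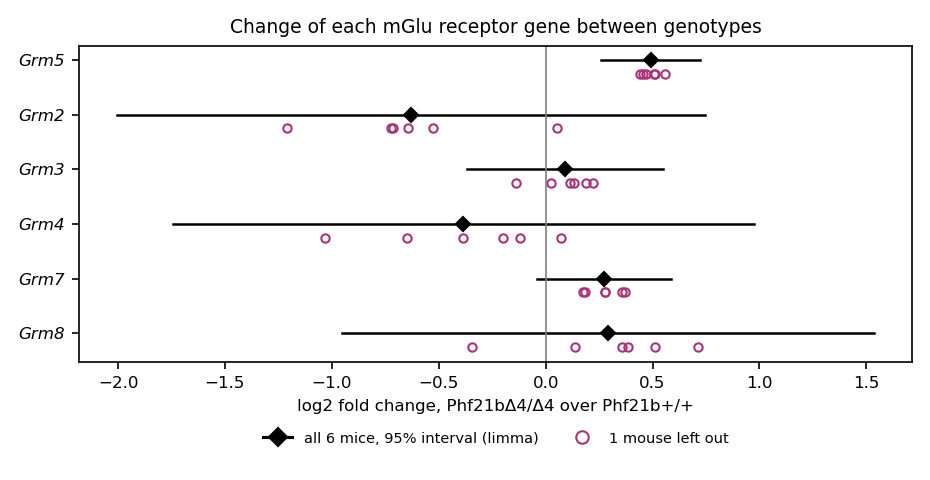
Log2 fold change of each mGlu receptor gene in Phf21bΔ4/Δ4 over Phf21b+/+ mice (horizontal axis), with limma's 95% interval as a black line and the values with 1 mouse left out as open circles. The interval of *Grm5*, from 0.26 to 0.72, is the only one of the 6 that does not reach 0, and the open circles of *Grm2* run from -1.21 to 0.053.

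Within a mouse, the difference in log2 CPM between a pair of receptors of the same group is not moved by a single scaling factor per library, though quantile normalization, which has no such factor, gave -0.48 for *Grm4* minus *Grm7* and -0.21 for *Grm7* minus *Grm8* in the comparison below. *Grm2* minus *Grm3* was -2.77, -0.96, and -1.28 in Phf21bΔ4/Δ4 replicates 2, 3, and 6, and -0.79, -0.86, and -1.21 in Phf21b+/+ replicates 5, 7, and 8. The mean difference changed by -0.72 in the mutants (exact permutation test, 2-sided, p = 0.2, or 0.4 with Benjamini-Hochberg correction for the 4 pairs compared). It changed by -0.66 for *Grm4* minus *Grm7* (exact permutation p = 0.4, adjusted 0.53), by -0.68 for *Grm4* minus *Grm8* (exact permutation p = 0.2, adjusted 0.4), and by -0.02 for *Grm7* minus *Grm8* (exact permutation p = 1, adjusted 1). No change passed the test, and the smallest p that 3 mice against 3 allow is 0.1. For *Grm2* minus *Grm3* the SD was 0.97 among the mutants and 0.22 among the wild-type mice.

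Levels of different genes were compared per kilobase of annotated exon. In Phf21b+/+ mice the order was *Grm5* with 48.6 ± 2.14, *Grm3* with 32.6 ± 2.58, *Grm7* with 13.5 ± 1.85, *Grm2* with 10.5 ± 1.42, *Grm4* with 2.98 ± 1.08, and *Grm8* with 1.14 ± 0.200 CPM per kb (SD, n = 3 each). *Grm7* and *Grm2* had overlapping ranges there, and the other neighbours in this order did not. In Phf21bΔ4/Δ4 mice the order of the means was the same, with 68.4 ± 5.71 CPM per kb for *Grm5* and 35.5 ± 10.3 for *Grm3* (SD, n = 3 each), but *Grm7* and *Grm2*, *Grm2* and *Grm4*, and *Grm4* and *Grm8* overlapped. By this length the genes stood in this order in each mouse of either genotype. By coding length *Grm8* was above *Grm4* in Phf21bΔ4/Δ4 replicates 2 and 3, in the mutant mean (6.199 against 5.961 CPM per kb), and in Phf21b+/+ replicate 8, and *Grm7* was above *Grm3* in Phf21bΔ4/Δ4 replicate 2. By the longest transcript *Grm8* was above *Grm4* in Phf21bΔ4/Δ4 replicate 2. *Grm5* made up 59.5%, 43.9%, and 53.1% of the summed level of the 6 genes in Phf21bΔ4/Δ4 replicates 2, 3, and 6, and 43.0%, 45.3%, and 45.2% in Phf21b+/+ replicates 5, 7, and 8. In Phf21bΔ4/Δ4 replicate 3 the share of *Grm5* thus lay within the wild-type range although its level did not, since the other 5 receptors were highest in that mouse. The share of *Grm2* was 2.15%, 9.52%, and 6.63% in the mutants and 8.43% to 10.4% in the wild-type mice.

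**Figure D3:**
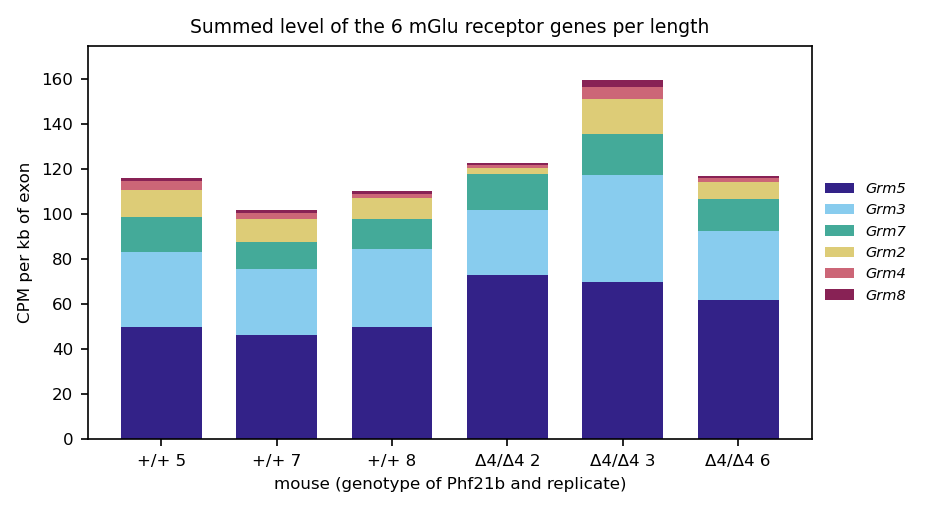
Level of the 6 mGlu receptor genes in each mouse, in CPM per kilobase of exon (vertical axis, from 0), stacked by gene. *Grm5* is the largest part of every column, between 46.1 and 73.1 CPM per kb, and the column of Phf21bΔ4/Δ4 replicate 3 is the tallest at 160 CPM per kb.

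The receptors can be set beside the cell type markers mouse by mouse, as log2 levels relative to the mean of the wild-type mice. *Grm5* was raised by 0.59, 0.53, and 0.35 in Phf21bΔ4/Δ4 replicates 2, 3, and 6, where the summed CA1 markers were raised by 1.21, 1.35, and 1.26 and the summed interneuron markers by 0.77, 0.86, and 0.40. Of the CA1 markers 3 of 8 were higher at the thresholds above and of the interneuron markers 1 of 10, where 0.553% of all genes were. In either list 0 were lower. In 4 of the 8 CA1 and 7 of the 10 interneuron markers the mutants all lay above the wild-type mice, where 15% of all genes did. The median log2 change was 1.25 for the CA1 and 0.65 for the interneuron markers. *Grm2* stood at -1.99, 0.54, and -0.43 in Phf21bΔ4/Δ4 replicates 2, 3, and 6 and the summed dentate granule cell markers at -1.198, -1.39, and -0.20. Of the 9 dentate markers 0 passed the thresholds, while in 7 the mutants all lay below the wild-type mice, as in 16% of all genes. Thalamus markers stood at -1.71, -0.89, and -1.22, and 2 of the 8 were lower at the thresholds. *Grm2*, *Grm3*, and *Grm4* ran in the same order of replicates as the summed thalamus markers, and so did the summed CA1 markers. *Grm5* was highest in replicate 2, the mutant in which the summed CA1 markers were lowest. Single CA1 markers differed in their order. In Phf21bΔ4/Δ4 replicates 2, 3, and 6, *Fibcd1* had 384, 232, and 231 CPM and *Mpped1* had 299, 393, and 229 CPM. *Grm4* stood at -1.30, 0.91, and -0.76 in Phf21bΔ4/Δ4 replicates 2, 3, and 6. Whether the tissue behind any marker list moved the receptor values was not tested. Medial habenula markers, 11 of 12 of which were lower, stood between -2.87 and -1.96. Of 4 further lists, 0 of 8 CA3 and 0 of 8 microglia markers passed in either direction, while 1 of 10 astrocyte and 1 of 7 choroid plexus markers were lower. In the last 2 lists, of oligodendrocyte lineage (10 markers) and of cerebellar granule cells (2 measured of 6), 0 passed.

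**Figure D4:**
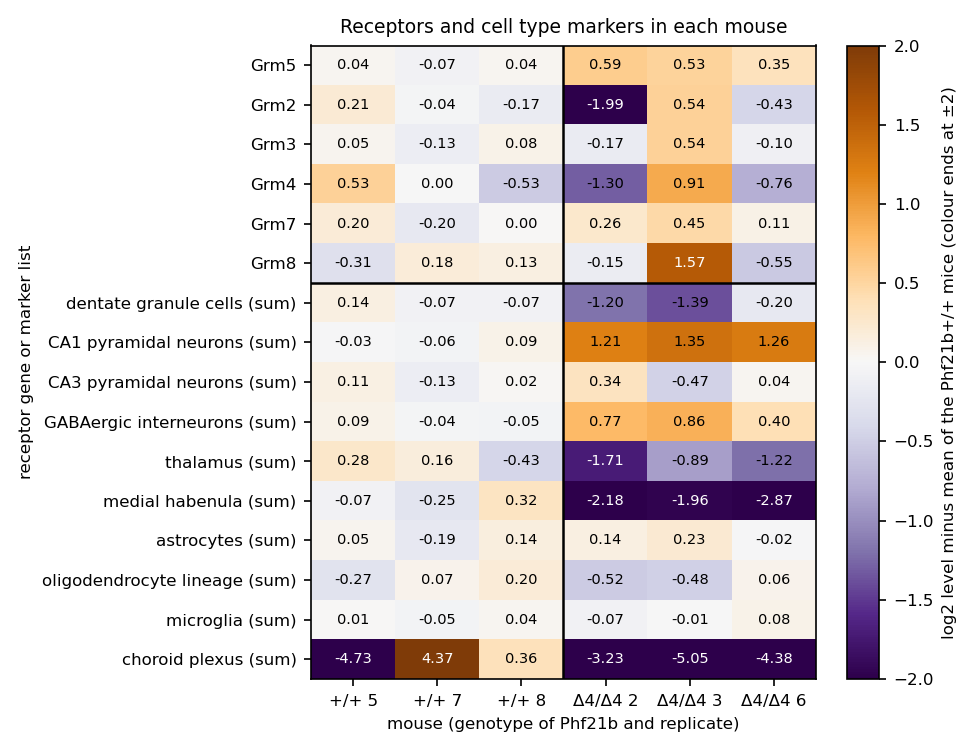
Log2 level of each mGlu receptor gene and of each summed marker list in every mouse, minus the mean of the 3 Phf21b+/+ mice, as a number and as a colour that ends at ±2. *Grm5* and the CA1 and interneuron markers are above 0 in all 3 Phf21bΔ4/Δ4 mice, and *Grm2*, *Grm3*, *Grm4*, and *Grm8* run from below to above 0 among them.

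Genes that work with mGlu receptors were taken as 4 lists with 59 measured genes. Of these, 2 were higher and 0 lower in Phf21bΔ4/Δ4 mice at the thresholds above (3.39%, where 1.22% of all genes passed), and the median log2 change was 0.19, against -0.019 over all genes. *Prkcb* and *Homer1* were the 2 genes, and the study's own list of differentially expressed genes from these data holds both. Because the 4 lists were chosen with earlier results of these data known, the 2 percentages are not an independent comparison. In 17 of the 59 the mutants all lay above the wild-type mice, where 15% of all genes did, and in 3 below, where 16% did. Together 33.9% of the 59 did not overlap, where 31% of all genes did not. Of the 6 fits that left out a mouse, both genes stayed past the thresholds in 1, that without Phf21bΔ4/Δ4 replicate 6. In that fit 16 of the 59 genes and 2830 of all 14477 genes passed.

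Of the 13 genes of the Gq pathway, through which mGlu5 acts, 1 passed the test. *Prkcb*, a classical protein kinase C that calcium and diacylglycerol activate, had 735, 849, and 771 CPM in Phf21bΔ4/Δ4 replicates 2, 3, and 6 and 477, 398, and 528 CPM in Phf21b+/+ replicates 5, 7, and 8. All 3 mutants lay above the wild-type mice, and the difference was 0.75 in log2 units (SE 0.13, FDR 0.081, limma). The following genes of the list were chosen after their values were seen. *Gnaq*, the G protein subunit that links mGlu5 to phospholipase C, had 268 ± 20.8 CPM against 205 ± 21.4 CPM (SD, n = 3 each), which is 0.39 apart in log2 units (FDR 0.14, limma). Among the phospholipase genes, *Plcb1* differed by 0.46 (FDR 0.13, limma) and *Plcb4* by -0.99 (FDR 0.13, limma) on that scale. The genotypes did not overlap for *Gnaq* and *Plcb1*, with the mutants higher, or for *Plcb4*, with the mutants lower.

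Of the 17 genes of the Gi/o pathway of group II and III receptors, 0 passed the test, with a median log2 change of 0.20. The extremes were adenylyl cyclases, the enzymes that Gi inhibits. *Adcy5* differed by 0.65 (FDR 0.14, limma) and *Adcy1* by -0.58 (FDR 0.41, limma) in log2 units. *Adcy1* ran from 681 to 2415 CPM among the mutants, while the wild-type mice lay between 1812 and 2013 CPM.

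Of the 17 measured scaffold and partner genes, *Homer1* alone passed the test. Its long products link mGlu5 to the postsynaptic scaffold, and its short product Homer1a, which neuronal activity induces, uncouples them. Gene-level values do not separate the products. *Homer1* had 253, 246, and 274 CPM in Phf21bΔ4/Δ4 replicates 2, 3, and 6 and 174, 164, and 183 CPM in Phf21b+/+ replicates 5, 7, and 8, or 0.57 more in log2 units (SE 0.080, FDR 0.065, limma). *Elfn2*, which encodes a synaptic protein that binds group III receptors and was chosen after its values were seen, had 178 ± 17.4 CPM against 124 ± 8.08 CPM (SD, n = 3 each, 0.51 in log2 units, FDR 0.11, limma). Of the 12 measured genes that desensitize the receptors (kinases, arrestins, and RGS proteins), 0 passed the test, and their log2 changes ran from -0.41 for *Grk5* to 0.63 for *Grk3* (FDR 0.32 and 0.23, limma).

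**Figure D5:**
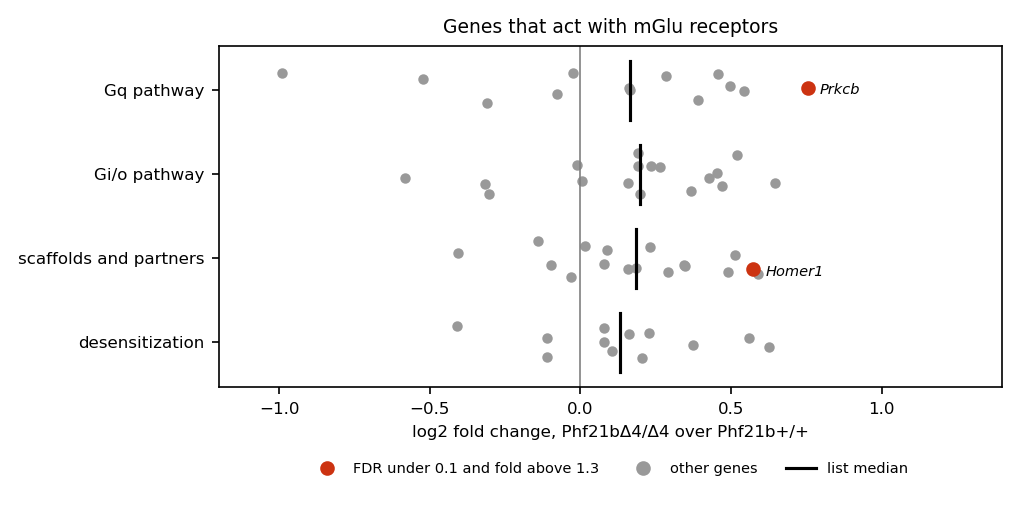
Log2 fold change in Phf21bΔ4/Δ4 over Phf21b+/+ mice (horizontal axis) of the 59 measured genes that act with mGlu receptors, 1 point per gene in 4 lists, with red points for genes that met both thresholds (FDR under 0.1, fold change above 1.3) and a black line at each list's median. The medians lie between 0.13 and 0.20, and the red points are *Prkcb* and *Homer1*.

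The genes with the most similar profile were taken by the smallest root mean square difference in log2 CPM over the 6 mice, each gene being centred on its own mean, among the 12966 genes whose log2 CPM averaged 1 or more. For *Grm5* they were *Gnptab* and *Usp46* (differences of 0.038 for both), and 4676 genes were closer to *Grm5* than a flat profile was. *Scai* (0.032) and *Btbd8* (0.039) were closest to *Grm7*, and *Frs3* (0.051) and *Tle4* (0.056) to *Grm3*. The genes with a wide spread among the mutants had looser matches, which were *Gm24270* (0.26) and *Gcnt4* (0.30) for *Grm2*, *Klhdc8a* (0.21) and *Gm42418* (0.24) for *Grm4*, and *Fnbp1l* (0.20) and *Plch1* (0.21) for *Grm8*. *Klhdc8a* had 3.58, 19.1, and 6.44 CPM in Phf21bΔ4/Δ4 replicates 2, 3, and 6. *Fnbp1l* had 30.7, 72.3, and 23.4 CPM in the same mice, against 23.3 to 30.3 CPM in the wild-type mice. Both genes were picked for their likeness over these 6 mice, so a highest level in replicate 3 was built into the choice.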

How the data were processed

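Hippocampal RNA-Seq values were analysed for 3 Phf21bΔ4/Δ4 and 3 Phf21b+/+ mice, grouped by their sample labels. The authors prepared Ribo-Zero libraries from total RNA, trimmed the reads with Trimmomatic (0.39), mapped them with STAR (2.7.3a) to GRCm38, counted them per gene with featureCounts (Subread 1.6.4), dropped genes that did not reach 1 CPM in 2 or more samples, and deposited log2 CPM scaled by edgeR's effective library sizes. The prior count and strandedness are not given in the sources used here. CPM and whole reads were recovered by removing the lowest value (100% of values whole within 0.1 reads, prior count 0.094 to 0.106). A level of 3 reads was 0.127 to 0.143 CPM, which covers counting error only.

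limma 3.58.1 (R 4.3.3) fitted all 14477 genes (lmFit, eBayes with trend, no covariate), 2-sided, with Benjamini-Hochberg adjustment. The FDR and fold thresholds are those of the paper's methods, whose own test needs counts. On simulated data with 200 changed genes, the fit recovered 95 of 100 2-fold and 100 of 100 4-fold changes and passed 16 unchanged genes. The simulation gave every gene the same dispersion and changed only genes above 1 CPM. It therefore does not show how often a change would be missed in genes as widely spread as *Grm2*, *Grm4*, and *Grm8*. Which mice shared a litter is not given, so p-values measure the spread between these mice. Exact permutation tests used all 20 divisions of the mice. Exon lengths and positions come from GENCODE vM21 (the authors used another release of the same build, M24) and upstream sequences from RefSeq (GRCm38.p6), without the 50 bases after the start. The members and lists were chosen with earlier results of these data known, and 1 gene of the signalling lists is not reported here. Genes named are the 6 receptors, *Phf21b*, genes of the 4 lists past the thresholds (or, in lists without any, those with the smallest and largest log2 change), the 2 most similar profiles per receptor, and defining markers, apart from those stated to have been chosen after their values were seen. Alternatives were another prior variance, robust fitting, arrayWeights, a filter, 2 pseudocounts, 2 scalings, voom, 2 thresholds, other lengths, and leaving out mice.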

Additional observations from a re-analysis of the deposited data

How the results depend on the processing

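No paired analysis was possible because the litter of each mouse is not given. The number of receptor genes past the thresholds was 0 in all alternatives except arrayWeights, which gave 2 (*Grm5* and *Grm2*, the latter at -1.23), and the fit without Phf21bΔ4/Δ4 replicate 6, so that leaving out 1 mouse gave 0 to 1. *Grm5* and *Grm7* kept a positive log2 change in all 16 alternatives. Under voom, without normalization to effective library size, the median of all genes shifted to -0.13, and *Grm5* was 0.51 above that median, as it was with the deposited values. Leaving out 1 mouse gave log2 changes from -1.21 to 0.053 for *Grm2* and from -1.03 to 0.071 for *Grm4* (each positive only without Phf21bΔ4/Δ4 replicate 2), and from -0.14 to 0.22 for *Grm3* and from -0.35 to 0.71 for *Grm8* (each negative only without Phf21bΔ4/Δ4 replicate 3). Without both of these mice, an alternative chosen after seeing the data that leaves 1 mutant mouse, assumed to vary like the 3 wild-type mice, *Grm8* was at -0.55 and *Grm3* at -0.10. *Grm3* was also at -0.086 with arrayWeights and -0.020 with voom. *Grm7* minus *Grm8* turned to 0.53 without Phf21bΔ4/Δ4 replicate 3 and to 0.23 without Phf21b+/+ replicate 5, and ranged from -0.35 to 0.53 when each mouse was left out.

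The count over all genes moved from 176 to 75 with 1 prior variance for all genes, 3549 with arrayWeights, 101 with the filter, 25 at an FDR under 0.05, 49 without Phf21bΔ4/Δ4 replicates 2 and 3, and between 9 and 2830 with 1 mouse left out (28, 45, and 2830 without Phf21bΔ4/Δ4 replicates 2, 3, and 6, and 27, 14, and 9 without Phf21b+/+ replicates 5, 7, and 8). The count over the 4 signalling lists moved from 2 to 0 with 1 prior variance, with quantile normalization, and at an FDR under 0.05, to 17 with arrayWeights, to 1 without Phf21bΔ4/Δ4 replicates 2 and 3, and between 0 and 16 with 1 mouse left out (16 without Phf21bΔ4/Δ4 replicate 6, and 0 without any other mouse). The cause was not tested. With the longest transcript as the length, the wild-type shares became 47.5% for *Grm5*, 25.0% for *Grm3*, 14.4% for *Grm7*, 8.38% for *Grm2*, and 1.81% for *Grm8*. With the coding length they became 58.8% for *Grm5*, 16.0% for *Grm3*, 8.39% for *Grm2*, and 1.77% for *Grm8*, and the order of the 6 means was kept in wild-type but not in mutant mice, where *Grm8* passed *Grm4*.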
